A study of Mus musculus with 14 samples.

Results

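The Z-disc and the M-band are the transverse scaffolds that hold the thin and thick filaments of the sarcomere, the contractile unit of striated muscle. The genes described here are 36 mouse genes for the proteins of these scaffolds, for the giant proteins that span the sarcomere and for the factors that build and trim it. They were chosen by symbol from a fixed list, and all 36 were found among the 49671 genes of the count table. Their RNA was measured by poly(A) RNA sequencing in C2C12, a mouse skeletal muscle line that divides as myoblasts in rich serum and fuses into myotubes when serum is lowered. The 14 libraries fall into 7 groups of 2. Every group is the same line, so the results describe 1 cell line in culture and not muscle tissue.

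Day 0 cells were taken from growth medium with 20% fetal calf serum (FCS). Medium DM1 held 2% horse serum (HS) in its place. DM2 held 10% FCS with a cocktail of 1 µg/ml insulin, 0.5 mM IBMX (an inhibitor of phosphodiesterases), 0.5 µM dexamethasone (a glucocorticoid) and 2 µM rosiglitazone (an agonist of the nuclear receptor PPAR gamma), a mixture known for turning precursor cells into fat cells. DM3 held the 2% HS of DM1 together with that cocktail. Each medium was sampled on day 2 and on day 7. The labels number the replicates and do not say that they were separate cultures, so the p-values rest on a spread between libraries that could be technical.

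Titin reaches from the Z-disc to the M-band and nebulin runs along the thin filament. Alpha-actinins cross-link thin filaments of opposite direction in the Z-disc, and myomesins cross-link thick filaments in the M-band. In differentiating myotubes the scaffold proteins gather in precursor structures before striations form. The chaperone Unc45b and the methyltransferase Smyd1 help to fold and place myosin.

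Library totals lay between 21907617 and 29784885 expected counts, and the rank correlation of replicates over the tested genes lay between 0.962 in DM3 on day 2 and 0.995 in DM2 on day 7. Replicate 2 of DM3 on day 2 stood apart, with 17750 genes above 0 against 19640 to 21111 in the other libraries. It also had 4.18% of its expected counts not whole, against 9.66% to 10.5% in the others. It and the libraries of replicate 1 on day 0 and in DM1 on day 2 had the lowest shares of processed pseudogenes, at 0.584%, 1.28% and 1.29%. Fewer cells of a type and less RNA per cell cannot be told apart in such bulk libraries. The summed level of 5 myotube genes (Myog, Myh3, Acta1, Ckm and Tnnt3, all with counts in every group) lay at 6.97 to 7.69 CPM (counts as a share of the library size after TMM scaling) on day 0. It lay at 320.0 to 355 in DM1 on day 2, 666 to 898 in DM1 on day 7, 53.2 to 63.6 in DM2 on day 2, 442 to 447 in DM2 on day 7, 628 to 748 in DM3 on day 2 and 18506 to 19477 in DM3 on day 7. The summed level of 5 myoblast genes (Myod1, Myf5, Cdh15, Pax7 and Musk, all with counts in every group) lay at 568 to 637 CPM on day 0, and at 581 to 595 in DM1, 705 to 711 in DM2 and 863 to 971 in DM3 on day 2. On day 7 it lay at 444 to 543 in DM1, 480 to 505 in DM2 and 790 to 812 in DM3. These 5 genes, listed here as myoblast genes, went different ways, so their sum does not measure the share of myoblasts. Myod1 averaged 137 CPM on day 0 and 33.1 in DM1, 18.3 in DM2 and 68.8 in DM3 on day 7. In the same order Myf5 averaged 44.0, 131, 127 and 200 CPM, Musk 32.3, 48.7, 41.6 and 86.6, and Cdh15 389, 281, 306 and 444. Cdh15 made up most of the sum on day 0, and Pax7 averaged at most 0.687 CPM in any group. Fat cell markers summed to at most 9.41 CPM (DM2 on day 7, 6 of 7 with a count, with leptin at 0 in all groups). In DM3 on day 7 smooth muscle markers summed to 2203 to 2438 CPM, against 614 to 686 on day 0. Acta2 made up most of this, at 465 CPM on average on day 0 and 2146 in DM3 on day 7. In turn Smtn averaged 148 and 153 CPM, Tagln 33.2 and 20.5, Cnn1 3.95 and 0.187, and Myh11 0.0859 and 0.358. Cardiomyocyte markers summed to 10.4 to 12 CPM in DM3 on day 7, against 0.733 to 1.06 on day 0, with Nppa and Myl7 at 0. The part of these cell mixtures in the results below was not tested.

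The 36 genes together took 0.243% and 0.238% of all counts on day 0. Their share was 0.365% and 0.360% in DM1 on day 2 and 0.399% and 0.372% on day 7, 0.256% and 0.251% in DM2 on day 2 and 0.133% and 0.137% on day 7, and 0.364% and 0.417% in DM3 on day 2 and 1.03% and 1.11% on day 7. The highest share was thus that of DM3 on day 7 and the lowest that of DM2 on day 7, and neither group overlapped with any other. Of the 36 genes, 34 passed the filter on low counts and were tested, while Myot and Myoz3 had too few counts. Both highest libraries were those of DM3 on day 7 for 28 of the 34 (82.4%), against 12.5% of all 15973 genes tested. Both lowest libraries were those of DM2 on day 7 for 15 of the 34 (44.1%, against 14.5% of all genes) and those of day 0 for 7 (20.6%, against 9.60%). The heatmap of all libraries shows this split.

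**Figure D1:**
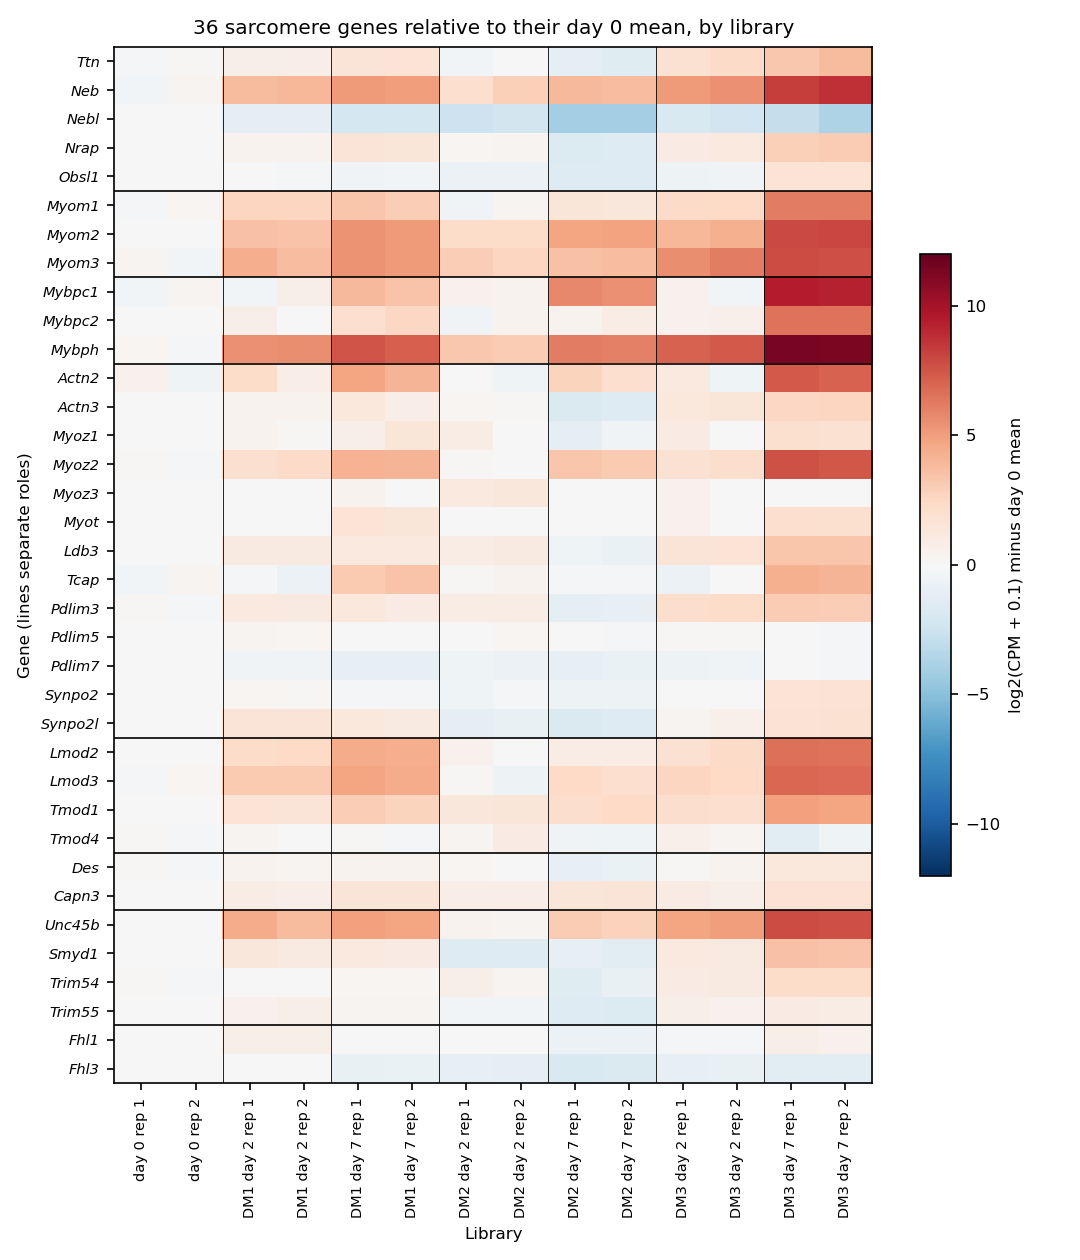
Level of each of the 36 genes (rows, by role) in each of the 14 libraries (columns), as log2(CPM + 0.1) minus the mean of the 2 day 0 libraries. The DM3 day 7 columns are the highest for 28 of the 34 tested genes, and the DM2 day 7 columns hold both rises and falls.

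The stretch of 250 bases before the RefSeq transcription start is shown for 5 genes whose levels are described below. Mybph had the largest fitted rise in DM3 on day 7, an order that is uncertain against genes with 2 counts on day 0. Mybpc1 alone was higher in DM2 than in DM1 on day 7. Myoz2 rose in DM2 on day 7 and was not called there on day 2, and Ttn and Myom1 went opposite ways in DM2 on day 7. Sequences are those of RefSeq on GRCm38.p6, 5′ to 3′ on the strand of the gene. Mybph is at chr1:134193198-134193447 (plus strand), Mybpc1 at chr10:88605153-88605402 (minus) and Ttn at chr2:76982548-76982797 (minus). Myoz2 is at chr3:123034988-123035237 (minus, its last bases inside the annotated gene) and Myom1 at chr17:71019307-71019556 (plus, inside the annotated gene). Capitals mark matches, on either strand, to the E-box CAGCTG of myogenic factors, to CATTCC (or GGAATG on the other strand) of TEAD factors, to the MEF2 site and to the CArG box of serum response factor.
Mybph: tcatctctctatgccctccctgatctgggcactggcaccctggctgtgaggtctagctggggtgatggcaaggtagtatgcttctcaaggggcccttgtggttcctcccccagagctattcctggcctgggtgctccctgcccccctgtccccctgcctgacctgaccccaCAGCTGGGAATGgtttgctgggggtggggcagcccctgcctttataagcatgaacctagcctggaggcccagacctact
Mybpc1: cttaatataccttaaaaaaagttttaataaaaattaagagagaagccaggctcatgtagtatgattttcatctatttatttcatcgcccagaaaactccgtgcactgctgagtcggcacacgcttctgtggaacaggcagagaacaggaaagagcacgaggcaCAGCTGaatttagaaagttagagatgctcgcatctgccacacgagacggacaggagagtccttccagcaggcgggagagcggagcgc
Myoz2: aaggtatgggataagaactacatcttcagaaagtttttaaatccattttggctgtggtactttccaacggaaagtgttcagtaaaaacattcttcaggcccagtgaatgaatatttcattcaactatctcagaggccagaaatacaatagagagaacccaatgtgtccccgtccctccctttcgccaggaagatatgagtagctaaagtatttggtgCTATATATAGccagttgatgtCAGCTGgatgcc
Ttn: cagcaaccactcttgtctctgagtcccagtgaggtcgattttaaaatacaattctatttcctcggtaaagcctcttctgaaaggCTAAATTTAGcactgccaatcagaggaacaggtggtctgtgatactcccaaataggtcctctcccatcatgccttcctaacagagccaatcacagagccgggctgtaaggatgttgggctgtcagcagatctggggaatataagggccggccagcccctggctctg
Myom1: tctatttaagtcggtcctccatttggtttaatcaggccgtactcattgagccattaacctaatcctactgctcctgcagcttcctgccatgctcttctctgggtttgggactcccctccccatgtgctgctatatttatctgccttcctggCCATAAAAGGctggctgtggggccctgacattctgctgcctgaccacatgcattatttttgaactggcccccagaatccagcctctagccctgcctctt

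The Mybph window holds a CAGCTG 79 bases and a CATTCC match 73 bases before the start. In the other windows CAGCTG lies 87 bases before the start of Mybpc1 and 12 before that of Myoz2, the latter inside the annotated gene. A MEF2 site lies 33 bases before Myoz2 and 166 before Ttn, and a CArG box 99 before Myom1. RefSeq windows matched 27 of the 36 genes, with 35 windows in all. Trim55, Actn3, Myoz1, Tcap, Neb, Myoz3, Myot, Lmod3 and Myom2 had no entry. CAGCTG was in 28.6% of the 35 windows against 13.0% of the 32851 windows of all genes, CATTCC in 17.1% against 12.6%, the MEF2 site in 20.0% against 2.92% and the CArG box in 14.3% against 1.47%. Windows of 1 gene can overlap, as do those of Ldb3, in which the same CArG box counts 2 times. Counted by gene, CAGCTG was in 10 of the 27, CATTCC in 6, the MEF2 site in 6 and the CArG box in 4. A match describes letters and is not a measured binding site.

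A gene was said to rise or fall when the Benjamini-Hochberg adjusted p of edgeR's quasi-likelihood test over all 15973 genes was under 0.05, and each log2 fold change carries its standard error (SE). Against day 0, more of the genes were higher than lower in DM1 and DM3 at both days. In DM1 on day 2, 22 of the 34 rose and 2 fell, where 15.2% of all genes tested were higher and 14.6% lower. In DM1 on day 7, 24 rose and 5 fell (27.7% and 25.8% of all genes). In DM3, 20 rose and 4 fell on day 2 (25.5% and 25.4%), and 29 rose and 2 fell on day 7 (28.9% and 30.1%). The day 2 numbers in DM3 were also 20 and 4 without its replicate 2. In DM1 on day 2, 17 rose when the 3 libraries low in processed pseudogenes were left out. The median log2 fold change of the 34 was 0.79 in DM1 on day 2 and 1.46 on day 7, and 1.07 and 3.16 in DM3, where that of all genes lay between -0.03 and 0.06.

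In DM2 on day 2, 10 of the 34 tested genes rose and 8 fell. These shares of 29.4% and 23.5% lay near those of all genes (23.5% and 26.2%). On day 7 in DM2, 13 rose and 16 fell, or 38.2% and 47.1% (all genes 24.5% and 30.9%). The median log2 fold change was 0.18 on day 2 and -0.66 on day 7, against 0.01 and -0.03 over all genes. The day 2 and day 7 comparisons share the day 0 libraries. On day 7 in DM2 the 13 that rose were Neb, the 3 myomesins, Mybpc1, Mybph, Actn2, Myoz2, Lmod2, Lmod3, Tmod1, Capn3 and Unc45b. Their day 0 levels ran from 0.0341 to 4.41 CPM, with a median of 0.725. The 16 that fell were Ttn, Nebl, Nrap, Obsl1, Actn3, Ldb3, Pdlim3, Pdlim7, Synpo2, Synpo2l, Des, Smyd1, Trim54, Trim55, Fhl1 and Fhl3, whose day 0 levels ran from 3.45 to 863 CPM with a median of 40.2. Mybpc2, Myoz1, Tcap, Pdlim5 and Tmod4 were not called in either direction. This split by day 0 level was not particular to DM2. In all 6 comparisons with day 0 the genes that rose had a lower median day 0 level than those that fell. The medians were 2.45 and 68.4 CPM in DM1 on day 7, and 4.2 and 48.8 CPM in DM3 on day 2. A gene with few counts on day 0 can hardly be called lower, and the day 0 libraries enter both the level and the call.

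**Figure D2:**
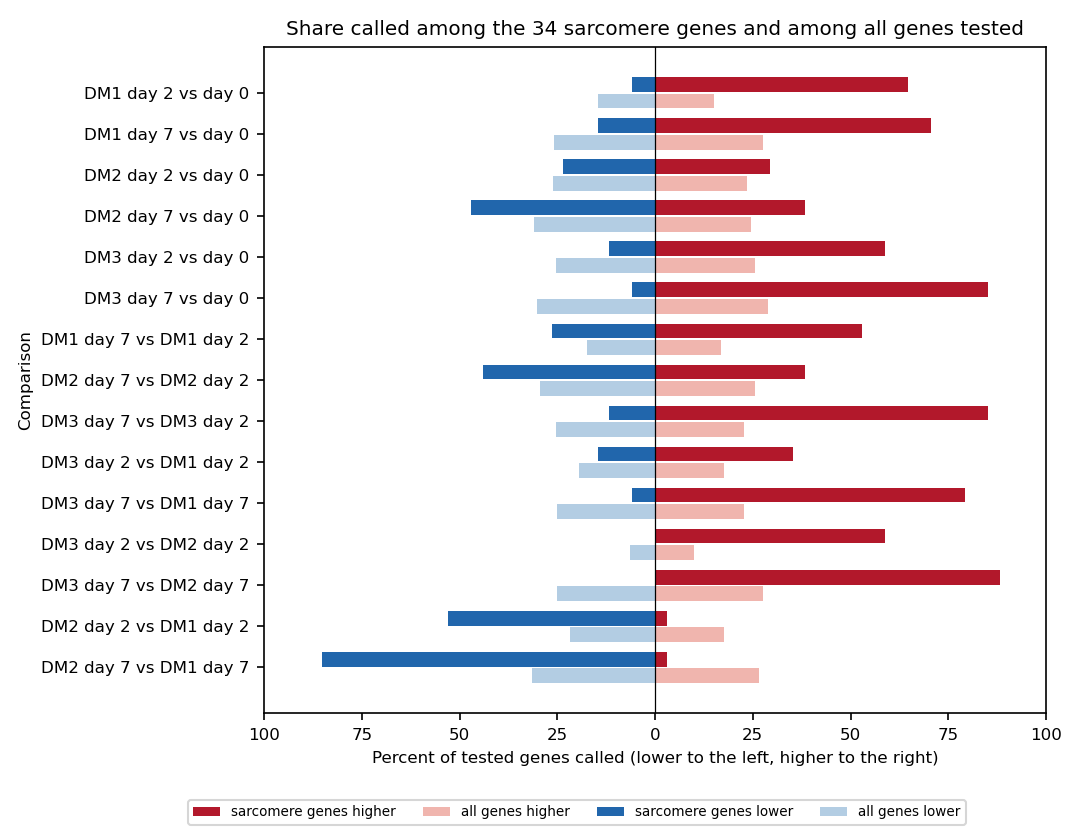
Percent of the 34 tested genes called higher and lower in each of 15 comparisons, beside the percent of all 15973 genes tested. The set is above the background for higher calls in DM3 against the other media on day 7 (27 and 30 of 34) and for lower calls in DM2 against DM1 (18 and 29 of 34).

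From day 2 to day 7, 18 of the 34 rose and 9 fell in DM1 (16.8% and 17.5% of all genes), and 13 rose and 15 fell in DM2 (25.4% and 29.4%). In DM3, 29 rose and 4 fell (22.6% and 25.3%). The median change of the set was 0.67, -0.29 and 1.83 on the log2 scale, against 0.04, -0.01 and 0.02 over all genes. In DM1, 12 of the 27 calls were lost when 1 of the libraries was left out, among them those of Ttn, Neb, Myom1 and Unc45b, against 5 of 28 in DM2 and 4 of 33 in DM3. A group left with 1 library was assumed to vary like the others.

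In the sentences that give all 14 libraries, each pair of values is replicate 1 and replicate 2, and in each medium the pair of day 2 stands before that of day 7. Among the giant proteins, titin and nebulin moved with the medium in different ways. Ttn (ENSMUSG00000051747, chr2:76703980-76982547, minus strand), which spans from Z-disc to M-band and acts as a molecular spring, stood at 159 and 198 CPM on day 0, 287 and 306 then 534 and 554 in DM1, 146 and 186 then 82.8 and 64.5 in DM2, and 633 and 901 then 1725 and 2451 in DM3. The DM3 day 7 libraries were the highest and those of DM2 on day 7 the lowest, and neither overlapped with another group, though the DM2 libraries of day 2 overlapped with day 0. Ttn rose in DM3 on day 7 by a log2 fold change of 3.55 (SE 0.24, adjusted p = 7.13e-07) and in DM1 on day 7 by 1.61 (SE 0.23, adjusted p = 0.000193), and fell in DM2 on day 7 (-1.28, SE 0.23, adjusted p = 0.000802). Its smaller rise in DM1 on day 2, 0.73 (SE 0.22, adjusted p = 0.0331), was not called without either day 0 replicate or either DM1 day 2 replicate (adjusted p = 0.0507 to 0.202). Replicate 2 of DM3 held 1.42 times the Ttn of replicate 1 on both days, where the median ratio of the set was 1.10 on day 2 and 0.982 on day 7.

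Neb (ENSMUSG00000026950, chr2:52136647-52378474, minus strand), the ruler-like protein of the thin filament, stood at 1.57 and 2.38 CPM on day 0, 29 and 32.2 then 72.2 and 64 in DM1, 8.37 and 14.4 then 30.1 and 25.8 in DM2, and 69.4 and 93.8 then 646 and 879 in DM3. All 12 libraries of the differentiation media lay above day 0, including those of DM2. The log2 fold change on day 7 was 5.10 (SE 0.34, adjusted p = 2.47e-06) in DM1, 3.82 (SE 0.33, adjusted p = 1.14e-05) in DM2 and 8.59 (SE 0.39, adjusted p = 1.08e-07) in DM3. Its rise from day 2 to day 7 in DM1, 1.15 (SE 0.28, adjusted p = 0.012), was not called without either DM1 day 2 replicate or DM1 day 7 replicate 1 (adjusted p = 0.0549 to 0.082). Nebulette, Nebl (ENSMUSG00000053702, chr2:17343909-17731464, minus strand), a smaller relative of nebulin best known from cardiac Z-discs, went the other way, at 3.45 and 3.44 CPM on day 0, 1.47 and 1.5 then 0.713 and 0.71 in DM1, 0.521 and 0.649 then 0.113 and 0.117 in DM2, and 0.925 and 0.609 then 0.38 and 0.164 in DM3. Every library after day 0 lay below both day 0 libraries. Nebl fell in all 6 comparisons with day 0, by 4.85 on the log2 scale in DM2 on day 7 (SE 0.44, adjusted p = 1.4e-06), where the level was near the floor of 3 counts per library. In DM3 on day 7 the log2 fold change was -3.64 (SE 0.39, adjusted p = 5.61e-06), and -4.35 without DM3 day 7 replicate 1. The call in DM1 on day 2, -1.21 (SE 0.33, adjusted p = 0.0161), was lost without either day 0 replicate or either DM1 day 2 replicate (adjusted p = 0.0646 to 0.0941).

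Nrap, a nebulin-related scaffold of early myofibrils, and Obsl1, an obscurin relative that binds titin and myomesin, also depended on the medium. Nrap averaged 13.2 ± 0.00383 CPM (SD, n = 2) on day 0, 38.2 ± 0.931 in DM1, 4.27 ± 0.235 in DM2 and 105 ± 8.9 in DM3 on day 7. It rose in DM1 and DM3 at both days and fell in DM2 on day 7 (-1.63, SE 0.10, adjusted p = 5.29e-08). Its small rise in DM2 on day 2 (0.28, SE 0.09, adjusted p = 0.0227) was lost without either day 0 replicate or either DM2 day 2 replicate (adjusted p = 0.0868 to 0.11). Obsl1 stood at 29.2 and 28.5 CPM on day 0, 28.2 and 24.9 then 21.5 and 22.7 in DM1, 17.4 and 17.3 then 9.94 and 10.1 in DM2, and 18.6 and 21.2 then 88.5 and 89.6 in DM3. Only the DM3 day 7 libraries lay above day 0, and those of DM2 on day 7 were the lowest. Obsl1 fell in DM2 at both days, in DM1 on day 7 (-0.39, SE 0.09, adjusted p = 0.00261) and in DM3 on day 2 (-0.53, SE 0.09, adjusted p = 0.000286), and rose in DM3 on day 7 (1.62, SE 0.09, adjusted p = 1.14e-08).

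**Figure D3:**
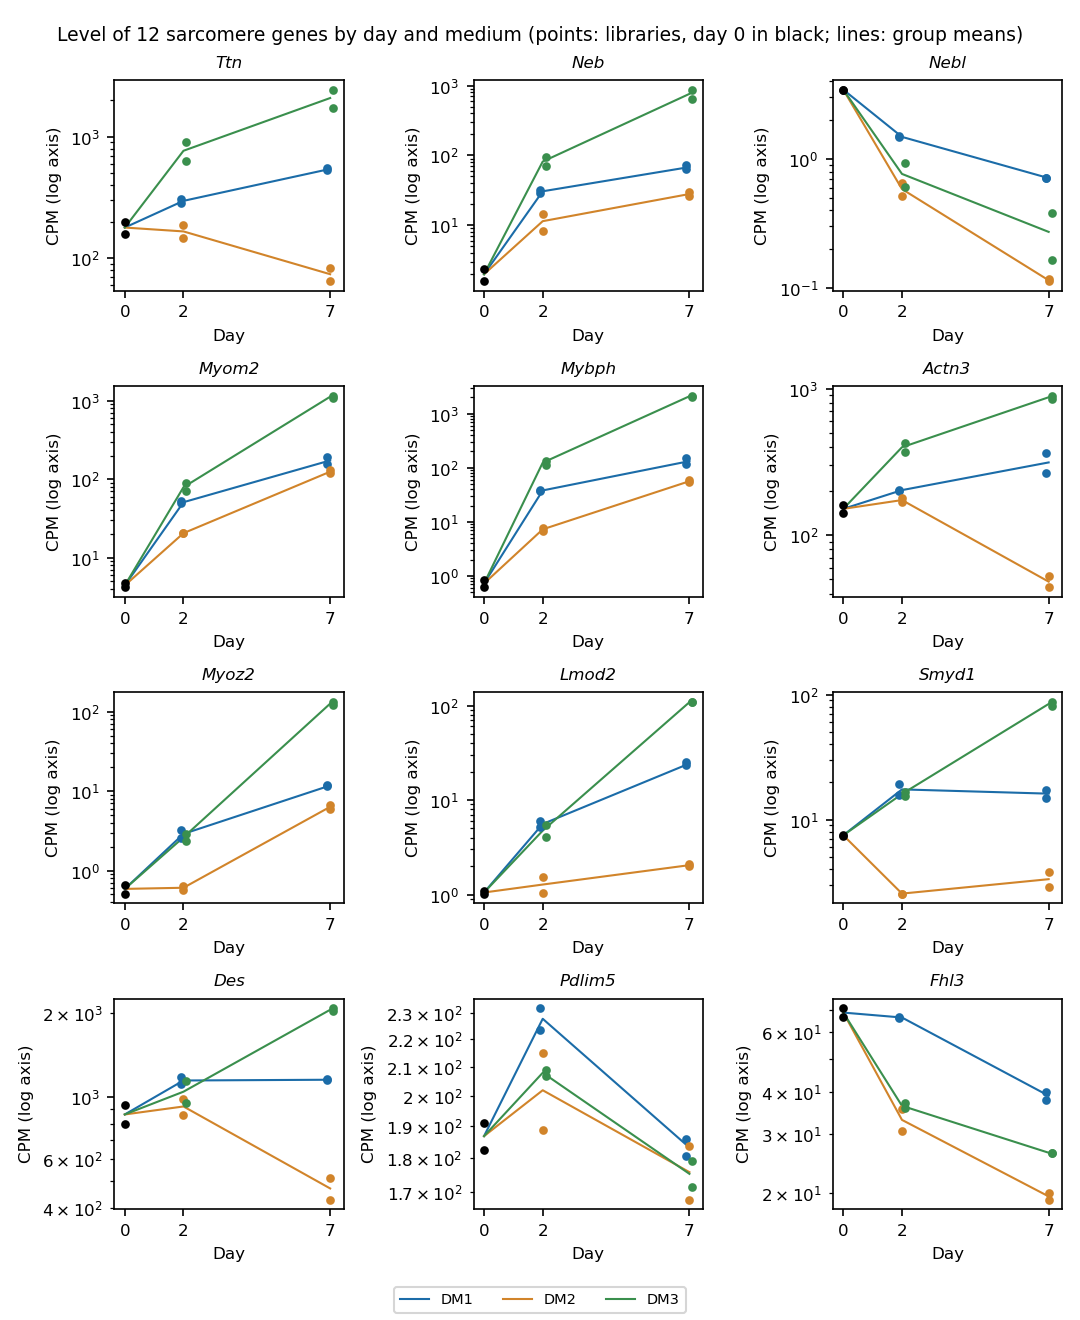
Level in CPM (log axis) against day for 12 of the genes, with 1 point per library, day 0 in black and lines through the group means of DM1, DM2 and DM3. Neb, Myom2 and Mybph are above day 0 in all media, Nebl and Fhl3 lie below it on day 7, and Ttn, Actn3 and Smyd1 are above it in DM3 and below it in DM2 on day 7.

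The 3 myomesins of the M-band rose in all comparisons with day 0, except for Myom1 in DM2 on day 2 (-0.03, SE 0.24, adjusted p = 0.934). Their summed level was 5.34 and 6.23 CPM on day 0, 214 and 173 in DM1, 126 and 135 in DM2 and 1241 and 1303 in DM3 on day 7. Myom3 (ENSMUSG00000037139, chr4:135759715-135815564, plus strand) stood at 0.174 and 0.0681 CPM on day 0, 4.37 and 2.66 then 8.84 and 7.3 in DM1, 1.52 and 1.18 then 2.3 and 2.68 in DM2, and 10.0 and 14.6 then 47.5 and 47 in DM3. No library of the differentiation media came down to day 0, and the DM3 day 7 libraries were the highest. Its fitted rise in DM3 on day 7 was 376-fold, a log2 fold change of 8.56 (SE 0.39, adjusted p = 6.34e-09), and 647-fold without day 0 replicate 1. Every other rise of Myom3 against day 0 moved by over 1.5 times in the same way. Myom2, the myomesin with the highest level per length in every group, averaged 4.41 ± 0.364 CPM on day 0, 174 ± 25.7 in DM1, 125 ± 6.63 in DM2 and 1129 ± 43.2 in DM3 on day 7. Myom1 averaged 1.26 ± 0.344 and 95.1 ± 1.05 CPM on day 0 and in DM3 on day 7, with values between these in DM1 (12.1 ± 2.24) and DM2 (3.4 ± 0.191). It overlaps Myl12a on the opposite strand.

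The 3 myosin-binding proteins of the A-band all rose in DM1 and DM3 on day 7, and Mybph and Mybpc1 had the 2 largest fitted rises of the 34 genes in DM3. The rises of Mybpc1 and Mybpc2 rest on 2 counts each on day 0, so their order against Mybph is uncertain. Mybph (ENSMUSG00000042451, chr1:134193448-134201232, plus strand), a thick-filament protein known from fast muscle, stood at 0.837 and 0.613 CPM on day 0, 37.2 and 38.8 then 149 and 115 in DM1, 7.69 and 6.83 then 58.4 and 54 in DM2, and 114 and 134 then 2125 and 2039 in DM3. All groups were separate from day 0, and those of DM3 on day 7 were the highest. The log2 fold change on day 7 was 7.50 (SE 0.19, adjusted p = 9.71e-11) in DM1, 6.27 (SE 0.18, adjusted p = 2.47e-10) in DM2 and 11.48 (SE 0.21, adjusted p = 5.56e-12) in DM3. Per kilobase of exon, Mybph ranked 21 of the 36 genes on day 0, at 0.311 CPM per kb, and ranked 1 in DM3 on day 7, at 894.

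Mybpc1, the slow form of myosin-binding protein C, had 2 counts in all on day 0 and 2 to 4 counts per group on day 2. Its level was 0 and 0.0681 CPM on day 0, 0 and 0.113 then 1.78 and 1.34 in DM1, 0.0801 and 0.0763 then 6.74 and 5.8 in DM2, and 0.0881 and 0 then 88.1 and 76.2 in DM3. It was called in none of the day 2 comparisons with day 0, and on day 7 no library overlapped with day 0. Against the 2 counts of day 0 the ratio on day 7 was 45.7 (12.3 to 384) in DM1, 182 (50.0 to 1509) in DM2 and 2381 (659 to 19669) in DM3, with exact 95% counting intervals. The adjusted p of these rises was 0.00015, 5.1e-06 and 1.31e-07. Without day 0 replicate 1 the ratios were 23.1 (6.2 to 194), 92.1 (25.3 to 764) and 1205 (333 to 9952). Without replicate 2, day 0 had no count, and the ratios were at least 14.9, at least 59.9 and at least 785 against a floor of 3 counts per library. Mybpc2, the fast form, was at 0.0349 and 0.0341 CPM on day 0, 0.126 and 0.0375 then 0.428 and 0.668 in DM1, 0 and 0.0763 then 0.0753 and 0.156 in DM2, and 0.0881 and 0.107 then 12.5 and 12.3 in DM3. It rose in DM1 on day 7 (ratio 15.6, interval 3.94 to 135) and in DM3 on day 7 (ratio 359.5, interval 99.1 to 2975), also against 2 counts on day 0. In DM2 on day 7 its ratio of 3.33 (0.595 to 33.7) was not called (adjusted p = 0.168). The mean level of Mybpc2 in DM3 on day 7 was 12.4 ± 0.107 CPM, and at most 0.668 CPM in any library of another group.

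**Figure D4:**
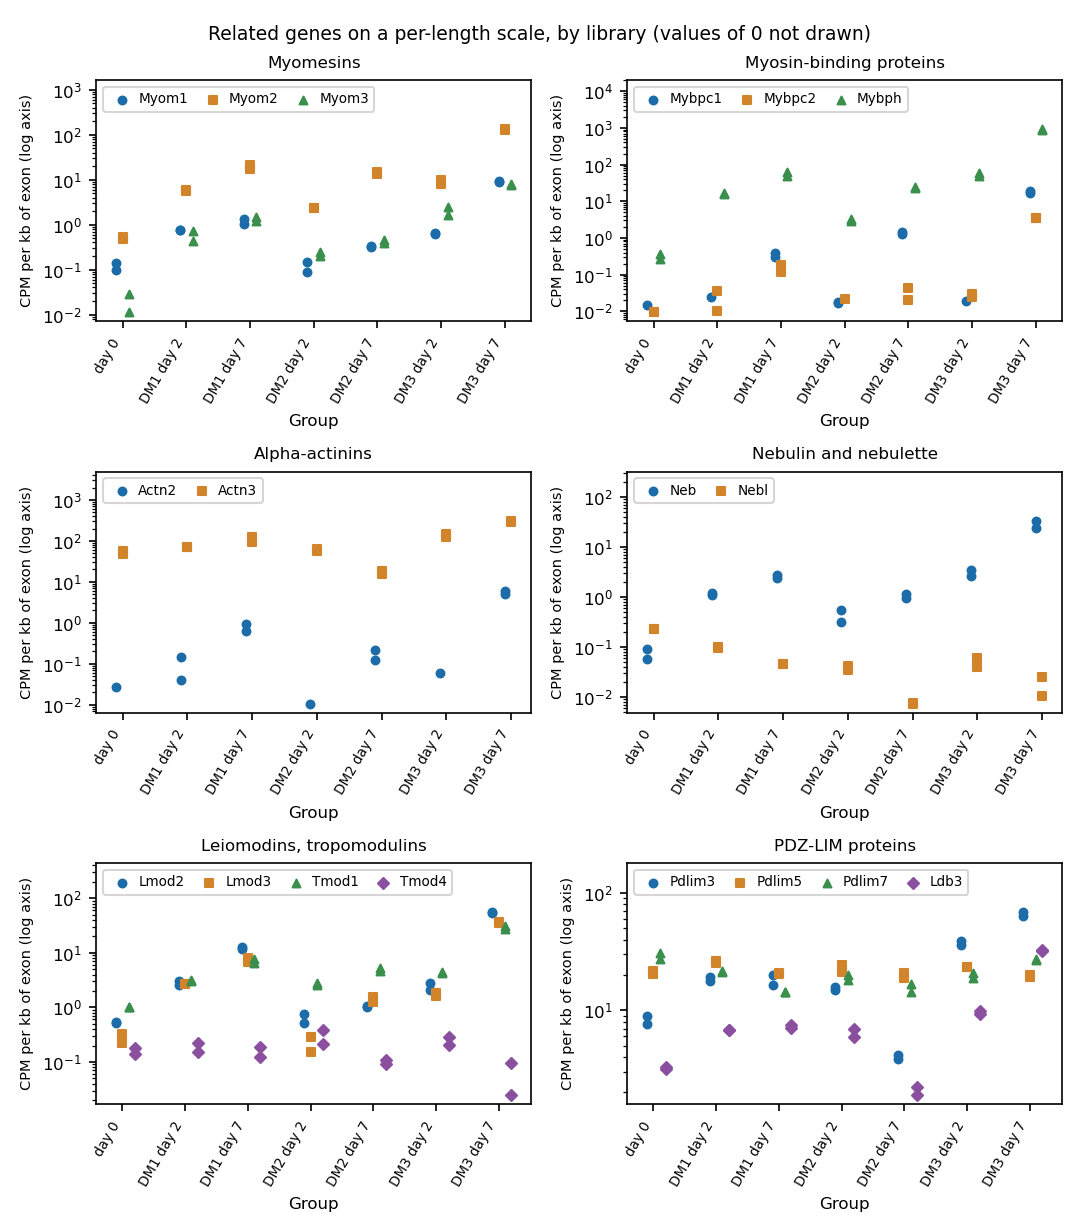
Level per kilobase of exon (CPM per kb, log axis) of the members of 6 families in the 7 groups, with values of 0 not drawn. Neb and Nebl exchange their order between day 0 and the other groups, and Actn3 lies above Actn2 in every group.

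The actin cross-linkers of the Z-disc differed in their start. Actn3, the alpha-actinin of fast fibres, was already abundant on day 0 (151 ± 13.3 CPM), while Actn2 had 3 counts there. Actn2 (ENSMUSG00000052374, chr13:12269426-12340760, minus strand) stood at 0.105 and 0 CPM on day 0, 0.546 and 0.152 then 3.6 and 2.39 in DM1, 0.0401 and 0 then 0.829 and 0.467 in DM2, and 0.22 and 0 then 22.8 and 19.3 in DM3. On day 7 all media were above day 0, and on day 2 the libraries overlapped with it in DM2 and DM3. Its ratio to day 0 on day 7 was 58.7 (19.7 to 288) in DM1, 12.6 (3.96 to 64) in DM2 and 406 (138 to 1970.2) in DM3, with adjusted p of 0.00128, 0.0265 and 7.68e-05. Without day 0 replicate 2 the ratios were 29 (9.75 to 142), 6.21 (1.95 to 31.6) and 200.4 (68.4 to 973). Without replicate 1, day 0 had no count, and the ratios were at least 29.2, at least 6.33 and at least 205. The call in DM2 was lost without day 0 replicate 2 or DM2 day 7 replicate 1 (adjusted p = 0.119 to 0.123). Actn3 averaged 313 ± 67.6 CPM in DM1, 48.2 ± 5.92 in DM2 and 872 ± 28.3 in DM3 on day 7, log2 fold changes of 1.05, -1.65 and 2.53 (adjusted p = 4.43e-05, 9.51e-07 and 1.9e-08). Its rise in DM1 on day 2 (0.42, SE 0.14, adjusted p = 0.0361) was lost without either day 0 replicate or either DM1 day 2 replicate (adjusted p = 0.0696 to 0.213). Per kilobase Actn3 was at 52.1 CPM on day 0 and Actn2 at 0.0138, and in DM3 on day 7 they were at 301 and 5.54.

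Of the 3 myozenins (calsarcins), Z-disc proteins that bind alpha-actinin and calcineurin, Myoz2 had most counts. Myoz2 (ENSMUSG00000028116, chr3:123006206-123035015, minus strand) stood at 0.663 and 0.511 CPM on day 0, 2.56 and 3.23 then 11.9 and 11.7 in DM1, 0.641 and 0.573 then 6.74 and 5.95 in DM2, and 2.38 and 2.86 then 132 and 120.5 in DM3. On day 2 the DM2 libraries overlapped with day 0, and on day 7 they lay above it, while 6 of the 11 tested genes of the Z-disc group fell. Myoz2 rose on day 7 by 4.32 (SE 0.17, adjusted p = 1.5e-09) in DM1, 3.43 (SE 0.17, adjusted p = 9.35e-09) in DM2 and 7.74 (SE 0.17, adjusted p = 1.36e-11) in DM3 on the log2 scale. Myoz1 was at 0.174 and 0.204 CPM on day 0, 0.294 and 0.225 then 0.356 and 0.668 in DM1, 0.441 and 0.191 then 0.0376 and 0.117 in DM2, and 0.484 and 0.179 then 0.972 and 0.903 in DM3. It did not reach 1 CPM in any of the 14 libraries and rose in DM3 on day 7 alone (2.28, SE 0.63, adjusted p = 0.00748), a call lost without day 0 replicate 1 (adjusted p = 0.0508). Myoz3 was at 0 and 0 CPM on day 0, 0 and 0 then 0.0356 and 0 in DM1, 0.12 and 0.153 then 0 and 0 in DM2, and 0.044 and 0 then 0 and 0 in DM3, 9 counts in all. Myot, which codes for the actinin-binding myotilin, was at 0 and 0 CPM on day 0, 0 and 0 then 0.214 and 0.167 in DM1, 0 and 0 then 0 and 0 in DM2, and 0.044 and 0 then 0.296 and 0.287 in DM3, 25 counts in all. Its 14 counts in DM3 on day 7 are at least 2.82-fold higher than day 0 against a floor of 3 counts per library, and neither gene was tested.

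Ldb3 and Pdlim3, which code for PDZ-LIM proteins that anchor at alpha-actinin, were lowest in DM2 and highest in DM3 on day 7, with day 0 and then DM1 between them. Ldb3 averaged 19.7 ± 0.357 CPM on day 0, 44.6 ± 1.66 in DM1, 12.6 ± 1.46 in DM2 and 198 ± 0.075 in DM3 on day 7, and Pdlim3 averaged 42.6 ± 4.33, 93.4 ± 12.2, 20.6 ± 1.27 and 339 ± 17.9. In DM2 both rose on day 2 (1.00 and 0.89, adjusted p = 4.11e-06 and 2.66e-05) and were below day 0 on day 7 (-0.64 and -1.05, adjusted p = 0.000118 and 4.74e-06). Tcap (telethonin, which joins the ends of titin in the Z-disc) had 4 counts on day 0. It was at 0.0349 and 0.102 CPM on day 0, 0.042 and 0 then 1.39 and 1.63 in DM1, 0.0801 and 0.115 then 0.0376 and 0.0389 in DM2, and 0 and 0.0716 then 3.09 and 2.71 in DM3. On day 7 the DM2 libraries lay within the day 0 range, and those of DM1 and DM3 above it. Its mean level was 1.51 ± 0.168 CPM in DM1 and 2.9 ± 0.266 in DM3 on day 7, against 0.0383 ± 0.000898 in DM2. The fitted fold was 20.5 in DM1 (adjusted p = 0.000111) and 39.4 in DM3 (adjusted p = 1.48e-05), and 37.9 and 73 without day 0 replicate 2.

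Pdlim5 and Pdlim7 code for 2 further PDZ-LIM proteins and were abundant at the start. Pdlim5 (ENSMUSG00000028273, chr3:142239590-142395696, minus strand) stood at 182 and 191 CPM on day 0, 232 and 224 then 181 and 186 in DM1, 189 and 215 then 184 and 168 in DM2, and 209 and 207 then 179 and 171 in DM3. All 14 libraries lay within 168 and 232 CPM, and the DM1 day 2 libraries were the highest. It was called in 1 of the 6 comparisons with day 0, DM1 on day 2 (0.29, SE 0.08, adjusted p = 0.0211), and that call was lost without either day 0 replicate or either DM1 day 2 replicate (adjusted p = 0.0603 to 0.144). Pdlim7 (ENSMUSG00000021493, chr13:55495795-55513676, minus strand) stood at 149 and 132 CPM on day 0, 102 and 104 then 69.3 and 69.1 in DM1, 97.7 and 87.3 then 70.0 and 81 in DM2, and 91.8 and 102 then 133 and 129 in DM3. Day 0 and DM3 on day 7 overlapped, and every other library lay below both. Pdlim7 fell in 5 of the 6 comparisons with day 0, by 1.02 on the log2 scale in DM1 on day 7 (SE 0.09, adjusted p = 2.31e-06), and had a log2 fold change of -0.10 (SE 0.09, adjusted p = 0.387) in DM3 on day 7. Scaled by library totals alone, both genes were called lower in DM3 on day 7.

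The 2 synaptopodin relatives bind alpha-actinin and filamin at the Z-disc. Synpo2 (ENSMUSG00000050315, chr3:123076519-123236149, minus strand) stood at 71.5 and 65.3 CPM on day 0, 78.8 and 75.3 then 56.5 and 57 in DM1, 49.2 and 58.7 then 44.7 and 44 in DM2, and 66.3 and 72.9 then 211 and 234 in DM3. The DM3 day 7 libraries were far above all others, and those of DM2 on day 7 were the lowest. It rose in DM3 on day 7 (1.70, SE 0.10, adjusted p = 1.82e-08) and fell in DM2 on day 7 (-0.63, SE 0.10, adjusted p = 0.000136). Smaller falls in DM1 on day 7 (-0.27, SE 0.10, adjusted p = 0.0311) and in DM2 on day 2 (-0.34, SE 0.10, adjusted p = 0.0103) were lost, the former without day 0 replicate 1 or either DM1 day 7 replicate (adjusted p = 0.0922 to 0.184) and the latter without day 0 replicate 1 or DM2 day 2 replicate 1 (adjusted p = 0.0614 to 0.0841). Synpo2l averaged 25.5 ± 1.84 CPM on day 0. It was at 73.9 ± 2.56 in DM1 on day 2, 87.4 ± 4.57 in DM3 on day 7 and 8.19 ± 0.571 in DM2 on day 7, so that it rose in DM1 at both days (1.54 and 1.17) and fell in DM2 at both (-0.97 and -1.63, with adjusted p from 2.54e-07 to 2.73e-05 over these 4).

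At the pointed end of the thin filament, the leiomodins Lmod2 and Lmod3 start and lengthen the filament and the tropomodulins cap it. Lmod3 (ENSMUSG00000044086, chr6:97238534-97252759, minus strand) stood at 0.488 and 0.715 CPM on day 0, 6.0 and 5.96 then 17.8 and 15.1 in DM1, 0.641 and 0.344 then 3.5 and 2.72 in DM2, and 4.05 and 3.58 then 81.6 and 76.7 in DM3. In DM2 on day 2 it overlapped with day 0, and all the other groups lay above it. The rise on day 7 was 4.76 (SE 0.22, adjusted p = 7.24e-09) in DM1, 2.36 (SE 0.23, adjusted p = 3.06e-06) in DM2 and 7.03 (SE 0.23, adjusted p = 2.27e-10) in DM3 on the log2 scale. Lmod2 averaged 1.05 ± 0.0421 CPM on day 0, 24.4 ± 1.44 in DM1, 2.05 ± 0.0751 in DM2 and 108 ± 0.691 in DM3 on day 7. Tmod1 rose in all 6 comparisons, from 4.0 ± 0.030 CPM to 28.1 ± 3.58, 19.4 ± 1.84 and 115 ± 8.29 CPM on day 7. It overlaps Tstd2 on the opposite strand. Tmod4, a tropomodulin of skeletal muscle fibres, stood at 0.314 and 0.238 CPM on day 0, 0.378 and 0.263 then 0.321 and 0.209 in DM1, 0.361 and 0.649 then 0.188 and 0.156 in DM2, and 0.484 and 0.358 then 0.0423 and 0.164 in DM3. The DM1 libraries overlapped with day 0 on both days, while those of DM2 and DM3 lay above it on day 2 and below it on day 7. The single lowest library was replicate 1 of DM3 on day 7. Tmod4 was called against day 0 in no comparison (log2 fold change -1.37 in DM3 on day 7, SE 0.71, adjusted p = 0.117), and its fall from day 2 to day 7 in DM3 (-1.96, SE 0.69, adjusted p = 0.0332) was lost without either DM3 day 2 replicate or DM3 day 7 replicate 1 (adjusted p = 0.0511 to 0.227).

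Desmin, the intermediate filament that links Z-discs, had the highest level per length of the 36 genes on day 0. Des (ENSMUSG00000026208, chr1:75360329-75368579, plus strand) stood at 931 and 796 CPM on day 0, 1175 and 1110.1 then 1152 and 1147 in DM1, 984 and 860.3 then 427 and 511 in DM2, and 950.2 and 1133 then 2073 and 2021 in DM3. The DM3 day 7 libraries were the highest and those of DM2 on day 7 the lowest, while day 0 overlapped with DM2 on day 2. Des rose in DM3 on day 7 (1.25, SE 0.12, adjusted p = 1.91e-06) and fell in DM2 on day 7 (-0.88, SE 0.12, adjusted p = 4.62e-05). Its rises in DM1, 0.40 (SE 0.12, adjusted p = 0.0218) on day 2 and 0.41 (SE 0.12, adjusted p = 0.0105) on day 7, were lost without day 0 replicate 2 or either DM1 day 2 replicate (adjusted p = 0.0656 to 0.179) and without day 0 replicate 2 (adjusted p = 0.112). Per kilobase it ranked 1 in every group but DM3 on day 7, where it was at 545 CPM per kb below Mybph. Capn3 (ENSMUSG00000079110, chr2:120456019-120504913, plus strand), a protease anchored on titin, stood at 2.86 and 2.98 CPM on day 0, 5.36 and 5.13 then 8.76 and 8.5 in DM1, 5.04 and 5.13 then 8.06 and 8.95 in DM2, and 5.77 and 4.68 then 9.64 and 9.72 in DM3. All 12 later libraries lay above day 0, and on day 7 the 3 media lay close together. The log2 fold change on day 7 was 1.56 (SE 0.14, adjusted p = 1.64e-06), 1.54 (SE 0.14, adjusted p = 1.51e-06) and 1.72 (SE 0.14, adjusted p = 4.23e-07) in DM1, DM2 and DM3. No difference between media was called on either day, with adjusted p from 0.266 to 0.975. Capn3 shares its strand and span with Ganc, and its counts were estimates that were not whole in any library, so its level is uncertain.

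Of the factors that fold and mark myosin, Unc45b, the myosin chaperone, had 4 counts on day 0. Unc45b (ENSMUSG00000018845, chr11:82910550-82943403, plus strand) stood at 0.0698 and 0.0681 CPM on day 0, 3.48 and 2.18 then 5.1 and 4.26 in DM1, 0.12 and 0.115 then 1.32 and 1.05 in DM2, and 4.36 and 5.44 then 39.4 and 36.9 in DM3. In DM2 the level was higher on day 7 than on day 2, and all day 7 libraries lay above day 0. The log2 fold change was 0.73 (SE 0.52, adjusted p = 0.515) in DM2 on day 2, and on day 7 it was 5.99 (SE 0.32, adjusted p = 2.23e-08) in DM1, 4.01 (SE 0.36, adjusted p = 1.28e-06) in DM2 and 9.01 (SE 0.32, adjusted p = 3.27e-10) in DM3. Smyd1, a methyltransferase that works with the same chaperones, averaged 7.5 ± 0.102 CPM on day 0, 16.1 ± 1.7 in DM1, 3.34 ± 0.652 in DM2 and 84.3 ± 4.32 in DM3 on day 7. In DM2 it fell at both days (-1.55 and -1.16, adjusted p = 4.11e-06 and 2.09e-05) while Unc45b rose on day 7. Smyd1 overlaps Krcc1 on the opposite strand, and whether the counting used strand is not given in the sources used here.

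The muscle RING proteins Trim54 and Trim55, which associate with microtubules, had their highest level in DM3 and their lowest in DM2 on day 7. Trim54 averaged 9.51 ± 1.16 CPM on day 0, 11.1 ± 0.398 in DM1, 4.24 ± 1.21 in DM2 and 42.8 ± 0.289 in DM3 on day 7, and Trim55 averaged 37.8 ± 2.09, 47.5 ± 1.3, 12.5 ± 0.924 and 73 ± 5.44. Both fell in DM2 on day 7 (-1.16 and -1.59, adjusted p = 0.00012 and 6.04e-08) and rose in DM3 on day 7 (2.17 and 0.95, adjusted p = 3.27e-07 and 2.72e-06). In DM2 on day 2 the signs differed, with a rise of Trim54 (0.53, SE 0.17, adjusted p = 0.0193) that was lost without day 0 replicate 2 or DM2 day 2 replicate 1 (adjusted p = 0.142 to 0.274) and a fall of Trim55 (-0.33, SE 0.09, adjusted p = 0.0113) that was lost without day 0 replicate 2 or DM2 day 2 replicate 2 (adjusted p = 0.0579 to 0.08). The rise of Trim55 in DM1 on day 7 (0.33, SE 0.09, adjusted p = 0.0105) was lost without day 0 replicate 1 or DM1 day 7 replicate 1 (adjusted p = 0.0615 to 0.0973).

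The four-and-a-half LIM proteins, small adaptors of the sarcomere and the nucleus, were both present at the start. Fhl1 (ENSMUSG00000023092, chrX:56731787-56793346, plus strand) stood at 476 and 458 CPM on day 0, 751 and 751 then 497 and 466 in DM1, 481 and 482 then 280.4 and 293 in DM2, and 428 and 412 then 745 and 676 in DM3. The DM1 day 2 libraries were the highest, just above replicate 1 of DM3 on day 7, and those of DM2 on day 7 were the lowest. Fhl1 rose in DM1 on day 2 (0.68, SE 0.08, adjusted p = 4.85e-05) and in DM3 on day 7 (0.61, SE 0.08, adjusted p = 2.23e-05), fell in DM2 on day 7 (-0.71, SE 0.08, adjusted p = 7.42e-06) and was at 0.04 (SE 0.08, adjusted p = 0.662) in DM1 on day 7. Fhl3 (ENSMUSG00000032643, chr4:124700701-124708611, plus strand) stood at 70.8 and 66.7 CPM on day 0, 66.4 and 66.5 then 37.9 and 39.8 in DM1, 35.4 and 30.5 then 19 and 20.0 in DM2, and 35.6 and 36.9 then 26.3 and 26.3 in DM3. It was highest on day 0 and in DM1 on day 2, and no other group overlapped with these. Fhl3 fell in 5 of the 6 comparisons, with a log2 fold change on day 7 of -0.82 (SE 0.08, adjusted p = 5.04e-06) in DM1, -1.82 (SE 0.09, adjusted p = 7.5e-09) in DM2 and -1.38 (SE 0.09, adjusted p = 3.52e-08) in DM3. Nebl and Fhl3 were the 2 of the 34 that fell in DM3 on day 7.

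DM3 and DM1 share their serum and differ in the cocktail, and they differed more in this set on day 7 than on day 2. On day 2, 12 of the 34 were higher in DM3 and 5 lower (17.6% and 19.4% of all genes), with a median of -0.01 on the log2 scale. On day 7, 27 were higher and 2 lower (22.7% and 25.1%), with a median of 1.96 against 0.00 over all genes. The largest of these was Mybpc1 (5.71, SE 0.39, adjusted p = 2.05e-06), followed by Mybpc2 (4.50, SE 0.44, adjusted p = 5.25e-06) and Mybph (3.98, SE 0.15, adjusted p = 3.61e-09). The 2 lower were Fhl3 (-0.56, SE 0.08, adjusted p = 0.000167) and Nebl (-1.37, SE 0.41, adjusted p = 0.015), the latter lost without either DM1 day 7 replicate or DM3 day 7 replicate 2 (adjusted p = 0.0505 to 0.152). The call of Actn2 was lost without DM1 day 7 replicate 2 (adjusted p = 0.0797). The 5 lower on day 2 were Synpo2l (-1.04), Fhl3 (-0.87), Fhl1 (-0.84), Lmod3 (-0.65) and Obsl1 (-0.41). The call of Lmod3 was lost without either DM1 day 2 replicate or DM3 day 2 replicate 2 (adjusted p = 0.0645 to 0.0738), and of the 12 higher that of Unc45b (0.80) without DM1 day 2 replicate 2 or DM3 day 2 replicate 2 (adjusted p = 0.0761 to 0.101). The difference itself differed between the days for 24 of the 34, each more in favour of DM3 on day 7 (16.3% of all genes), and for 0 in the other direction (18.7%), with 0 at an unadjusted p under 0.05 and 0 by DESeq2.

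DM3 and DM2 hold the same cocktail and differ in serum, both in kind and in amount. On day 2, 20 of the 34 were higher in DM3 and 0 lower (9.98% and 6.31% of all genes). Fhl1 was lower at an unadjusted p under 0.05 (-0.20, SE 0.08, adjusted p = 0.101), and DESeq2 called 1 gene lower. On day 7, 30 were higher and 0 lower (27.5% and 25.2%), with 0 lower at an unadjusted p under 0.05 and 0 by DESeq2. The medians were 0.87 on day 2 and 3.84 on day 7, against -0.02 and 0.01 over all genes. The difference grew from day 2 to day 7 for 27 of the 34 (20.0% of all genes) and shrank for 0 (19.8%), again with 0 at an unadjusted p under 0.05 and 0 by DESeq2. On day 7 the 4 not called were Nebl (1.21, SE 0.51, adjusted p = 0.118), Pdlim5 (-0.00, SE 0.08, adjusted p = 0.976), Tmod4 (-0.70, SE 0.76, adjusted p = 0.477) and Capn3 (0.19, SE 0.13, adjusted p = 0.266). The largest called difference on day 2 was that of Unc45b (5.33, SE 0.30, adjusted p = 4.33e-07). On day 7 it was at 5.0 (SE 0.24, adjusted p = 6.35e-09), and the change between the days was not called (-0.33, SE 0.38, adjusted p = 0.636). The call of Synpo2 on day 2 (0.37, SE 0.10, adjusted p = 0.0227) was lost without DM2 day 2 replicate 1 or DM3 day 2 replicate 2 (adjusted p = 0.164 to 0.21), and that of Trim54 (0.53, SE 0.17, adjusted p = 0.0485) without DM2 day 2 replicate 2 or either DM3 day 2 replicate (adjusted p = 0.0524 to 0.238).

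**Figure D5:**
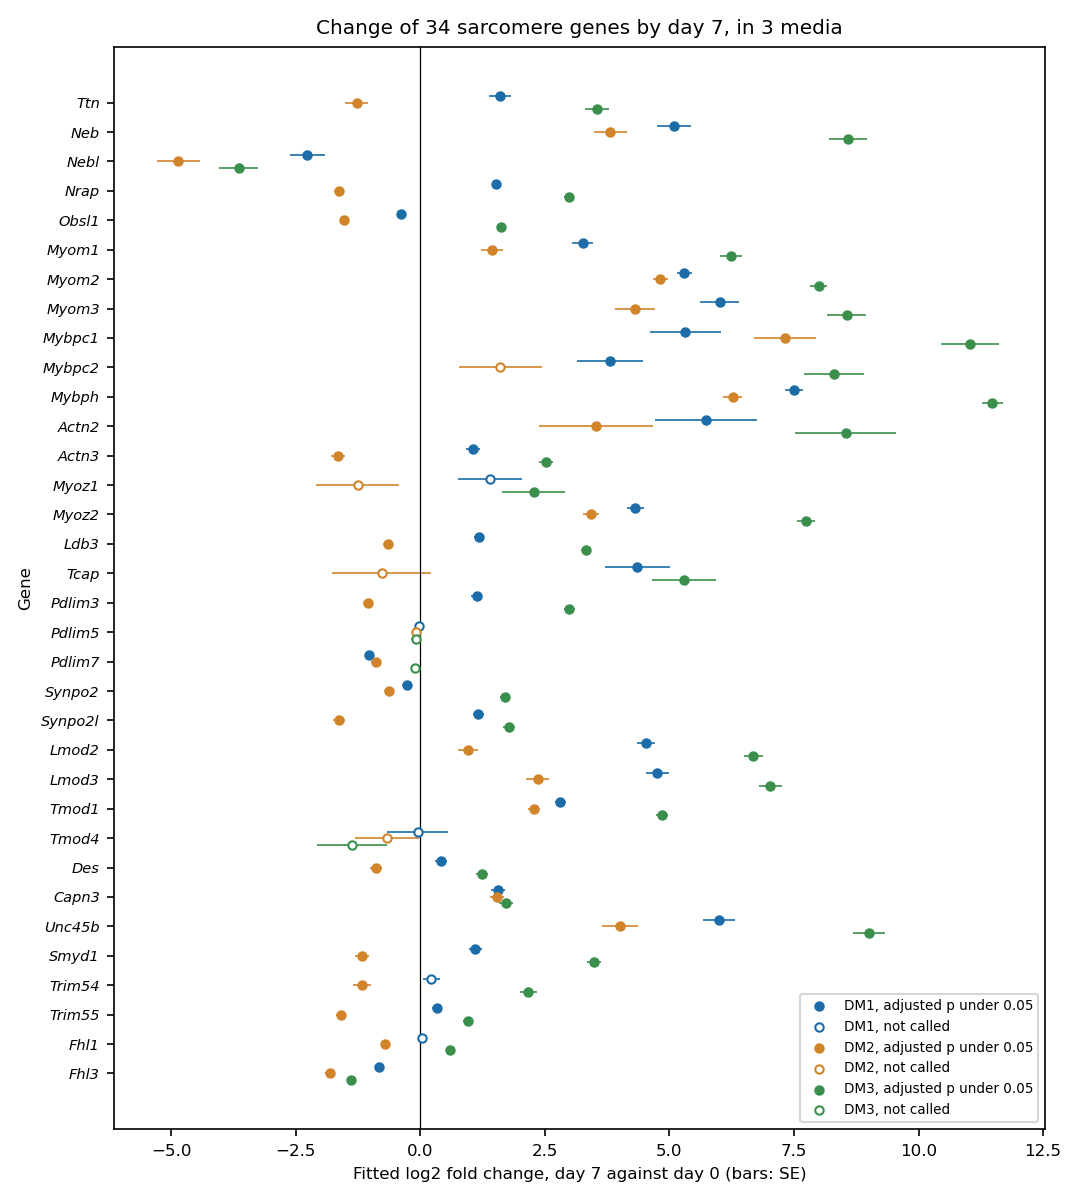
Fitted log2 fold change of the 34 tested genes on day 7 against day 0 in DM1, DM2 and DM3, with SE bars; open points did not pass an adjusted p of 0.05. DM3 is the highest of the media for most genes, and the calls are lower in DM2 and higher in DM3 for Ttn, Nrap, Obsl1, Actn3, Ldb3, Pdlim3, Synpo2, Synpo2l, Des, Smyd1, Trim54, Trim55 and Fhl1.

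DM2 against DM1 changes both the serum and the cocktail. On day 2, 1 of the 34 was higher in DM2 and 18 lower (17.5% and 21.9% of all genes), with a median of -0.74 against 0.00. The 1 higher was Trim54 (0.61, SE 0.17, adjusted p = 0.0128), lost without either DM1 day 2 replicate or DM2 day 2 replicate 1 (adjusted p = 0.0642 to 0.165). On day 7, 1 was higher and 29 lower (26.5% and 31.4%), with a median of -1.76 against -0.01. The 1 higher on day 7 was Mybpc1 (2.0, SE 0.36, adjusted p = 0.000998), at 6.27 ± 0.665 CPM in DM2 and 1.56 ± 0.315 in DM1. The largest lower values were those of Tcap, which was 39.2 (10.5 to 329) times as high in DM1 (adjusted p = 6.34e-05) over 2 counts in DM2, of Lmod2 (-3.57, SE 0.17, adjusted p = 9.33e-09), and of Nrap (-3.16, SE 0.10, adjusted p = 6.86e-10). The call of Myom2 (-0.48, SE 0.12, adjusted p = 0.0053) was lost without DM1 day 7 replicate 1 (adjusted p = 0.0719), that of Mybpc2 without DM2 day 7 replicate 1 (adjusted p = 0.0543), that of Myoz1 without DM1 day 7 replicate 2 or DM2 day 7 replicate 1 (adjusted p = 0.0737 to 0.083) and that of Actn2 without either DM1 day 7 replicate or either DM2 day 7 replicate (adjusted p = 0.0581 to 0.176). On day 7 the 4 not called were Capn3, Pdlim5, Pdlim7 and Tmod4.

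A further list of 46 genes for Z-disc, M-band and sarcomere assembly proteins outside the set gives the surroundings. Of its 40 genes tested, 16 rose and 6 fell in DM1 on day 2 against day 0, or 40% and 15% (15.2% and 14.6% of all genes). On day 7 in DM1, 17 rose and 10 fell, or 42.5% and 25% (27.7% and 25.8%). In DM2, 10 rose and 11 fell on day 2, or 25% and 27.5%, near the shares of all genes (23.5% and 26.2%). On day 7 in DM2, 13 rose and 16 fell, or 32.5% and 40% (24.5% and 30.9%). In DM3, 16 rose and 13 fell on day 2, or 40% and 32.5% (25.5% and 25.4%). On day 7 in DM3, 23 rose and 10 fell, or 57.5% and 25% (28.9% and 30.1%). Smpx, a small muscle protein of costameres, and Trim63, a muscle RING ligase, were at 0 on day 0, and Ankrd2, a titin-binding ankyrin repeat protein, had 2 counts there. All of them rose in every medium on day 7. Folds against 0 counts are lower bounds, so these rises have no order among themselves or against other genes of the list. Smpx was at least 34.6-fold higher in DM1, at least 24.2-fold in DM2 and at least 559-fold in DM3. Trim63 was at least 36-fold, 9.45-fold and 222-fold higher. Ankrd2 was 243 times (66.7 to 2009) as high in DM1, 83.2 times (22.6 to 694) in DM2 and 6074 times (1681 to 50164) in DM3. Xirp1, an actin-binding repeat protein of the Z-disc region, was among the 3 largest falls in each medium, at -1.85, -4.73 and -1.18 on the log2 scale in DM1, DM2 and DM3. The others among these largest falls were Ankrd1 (-1.26) and Pdlim1 (-1.09) in DM1, Xirp2 (-3.45) and Nexn (-1.62) in DM2, and Vim (-1.81) and Csrp2 (-1.71) in DM3.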

How the data were processed

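Poly(A) RNA went into stranded libraries read single-end, per the labels and the design text of the series. Per the submitters' processing notes, reads were aligned with STAR 2.5.1b to GRCm38.p5 and counted with RSEM 1.2.31, with the Gencode vM12 annotation per the design text. The authors deposited RSEM's expected counts per gene, which are not normalized and need not be whole, since a read can be split among genes. They were rounded here to whole numbers.

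The 14 libraries were fitted in 1 model of the 7 groups in edgeR 4.0.16 (limma 3.58.1, R 4.3.3) with TMM scaling, filterByExpr by group and the robust quasi-likelihood F test with 7 residual degrees of freedom. This left 15973 genes, over which p-values were adjusted by Benjamini-Hochberg. The SE was taken as |log2 fold change| over the root of the F statistic. Alternatives were library totals alone, DESeq2-type size factors, no filter, DESeq2 1.42.0, a replicate block and leaving out each library.

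Levels are CPM on TMM-scaled totals. Levels per kilobase divide these by the union of exons in Gencode vM21 (GRCm38), which also gave coordinates, 1-based. With 1 to 3 counts in a group, ratios of summed counts carry exact 95% counting intervals, and against 0 they are bounds over a floor of 3 counts per library (0.102 to 0.132 CPM). Reads carry no molecular identifiers, so both cover counting error only.

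All 36 genes are named by role. Every library's value is printed for the gene with the largest day 7 change of each role, for those going against their role and for those with no call or with no counts in most libraries, and other genes are given by means. Ttn, Mybpc1, Mybpc2, Myoz1 and Tcap were printed in full as well, after their values were seen. The genes, lists and tests were chosen with earlier results of these data known.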

Additional observations from a re-analysis of the deposited data

Results flagged for a closer look

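The difference between DM3 and DM1, which share their serum and differ in the cocktail, itself differed between day 2 and day 7 for 24 of the 34 tested genes. Each was a difference of log2 differences (day 7 minus day 2) above 0, by edgeR's quasi-likelihood test of the interaction. The values above 3 were those of Mybpc1 (6.24), Actn2 (4.52), Mybpc2 (4.21), Myoz2 (3.56) and Myom1 (3.23). Those of 2 to 3 were Lmod3 (2.92), Smyd1 (2.50), Obsl1 (2.42), Lmod2 (2.38), Mybph (2.27), Unc45b (2.23), Synpo2 (2.12), Neb (2.07) and Myom2 (2.07). The smaller ones were Synpo2l (1.66), Ldb3 (1.65), Tmod1 (1.56), Fhl1 (1.40), Pdlim7 (1.01), Des (0.97), Pdlim3 (0.83), Trim54 (0.80), Nrap (0.78) and Trim55 (0.63). The calls of Mybpc1, Mybpc2, Actn2 and Trim54 were lost when 1 of their libraries was left out, Mybpc1 without DM1 day 2 replicate 2 (2.51, adjusted p = 0.933), and the day 2 counts of the first 3 genes were few.

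The difference between DM3 and DM2, which share the cocktail and differ in serum, itself differed between the days for 27 of the 34, each again larger on day 7. The values above 3 were those of Tcap (7.30), Mybpc2 (5.46), Mybpc1 (4.61), Lmod2 (3.82), Nrap (3.81), Myoz1 (3.49) and Ldb3 (3.40). Those of 2 to 3 were Actn3 (2.98), Obsl1 (2.95), Trim54 (2.80), Pdlim3 (2.74), Ttn (2.62), Myom1 (2.39), Myoz2 (2.21) and Smyd1 (2.01). The smaller ones were Synpo2 (1.96), Synpo2l (1.95), Des (1.95), Neb (1.93), Tmod1 (1.88), Lmod3 (1.72), Trim55 (1.60), Fhl1 (1.51), Myom2 (1.23), Mybph (1.12), Myom3 (1.06) and Pdlim7 (0.73). The calls of Myom3, Mybpc1, Mybpc2, Myoz1 and Lmod3 were lost when 1 of their libraries was left out, Mybpc2 without DM2 day 2 replicate 2 (2.28, adjusted p = 0.906), and the value of Tcap moved from 7.30 to 10.47 without DM3 day 2 replicate 2. On day 2 Tcap had 5 counts in DM2 and 2 in DM3, Mybpc2 had 2 and 5, and Mybpc1 had 4 and 2. Myoz1 had 1 and 3 counts in the DM2 libraries of day 7. The order of these genes against the others is thus uncertain. Both families of tests share the DM3 libraries.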

How the results depend on the processing

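Over the 34 genes and 17 comparisons, 578 results in all, no direction of a called result was reversed under any alternative. DESeq2 kept the outcome, called or not called, of 566 (3 calls lost) and DESeq2-type size factors of 572 (2 lost). Library totals alone kept the outcome of 561 (4 lost), no filter on low counts of 563 (13 lost) and the replicate block of 574 (2 lost). Leaving out 1 library kept 2424 of 2584. Numbers of genes moved by over 1.5 times as follows. The 2 lower in DM1 on day 2 against day 0 became 1 without any 1 library, and 0 when the 3 libraries with the lowest share of processed pseudogenes were left out, an alternative chosen after seeing the data. The 2 lower in DM3 on day 7 became 4 with library totals alone, with Pdlim5 and Pdlim7 added. The 9 lower in DM1 between the days became 5 to 6 without 1 library and 5 without the 3. The 4 lower in DM3 between the days became 2 without the filter, 1 to 2 without 1 library and 2 without the 3. The 2 lower in DM3 than in DM1 on day 7 became 1 with DESeq2 and 1 to 2 without 1 library. The 0 lower in DM3 than in DM2 on day 2 became 1 with library totals alone and with DESeq2, and the 1 higher in DM2 than in DM1 on day 2 became 0 to 1 without 1 library. Library totals alone shifted the median of all genes by -0.21 in DM3 and -0.23 in DM2 on day 7 against day 0, and the percent of called genes that were higher went from 48.9 to 37.0 and from 44.3 to 30.3. That percent also went from 47.5 to 27.3 for DM3 against DM1 and from 45.8 to 29.3 for DM2 against DM1 on day 7, from 61.3 to 50.8 for DM3 against DM2 on day 2, from 46.4 to 28.9 in DM2 and 47.3 to 30.8 in DM3 between the days, and from 46.5 to 30.5 for the day dependence of DM3 against DM1. Replicate numbers were shared only as numbers: over the 21 pairs of groups, the deviations of libraries with the same number correlated from -0.629 to 0.518, and 2 pairs passed 0.1. With the replicate block Trim54 in DM3 against DM2 on day 2 was no longer called (adjusted p = 0.063), so 19 genes in place of 20 were higher there, and no number moved by over 1.5 times. Depth limits Myot, Myoz3, Mybpc1, Mybpc2, Actn2, Tcap and Unc45b, which had 4 counts or fewer on day 0. Causes of these changes were not tested.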
